A study of Homo sapiens with 20 samples.

Results

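The clustered protocadherins are 53 protein-coding genes that lie side by side on chromosome 5 in 3 clusters, PCDHA with 15 genes, PCDHB with 16 and PCDHG with 22. They were taken by name and position from the GENCODE annotation, as the protein-coding genes on chromosome 5 whose symbol starts with PCDHA, PCDHB or PCDHG, out of 19563 protein-coding genes with a transcript in the files. NGP cells, an established neuroblastoma cell line grown in 6-well culture flasks, received either nutlin-3 as a racemic mixture at 8 µM (10 samples) or its ethanol vehicle (10 samples). Polyadenylated RNA was sequenced from stranded libraries. The labels give no duration of the treatment. The comparison asked how nutlin-3, a small molecule that keeps MDM2 from binding p53 and so stabilizes p53, changed the level of each gene, of each cluster and of each transcript.

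Protocadherins are calcium-dependent adhesion proteins of the cadherin family that sit on the surface of neurons and their relatives, where the combination of isoforms that a cell displays lets it tell its own processes from those of its neighbors. Each PCDHA or PCDHG gene has its own promoter and a large variable exon, which codes for the extracellular part and the membrane span, and this exon is spliced to a small set of constant exons at the 3′ end of the cluster that code for a shared cytoplasmic tail. PCDHB genes have no constant exons and are mostly single-exon genes, and the C-type members at the 3′ end of the alpha and gamma clusters (PCDHAC1, PCDHAC2, PCDHGC3, PCDHGC4 and PCDHGC5) are known to be expressed more uniformly from cell to cell than the others.

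On GRCh38 the PCDHA genes spanned chr5:140786136-141012347, the PCDHB genes chr5:141051374-141249365 and the PCDHG genes chr5:141330514-141512977, all on the plus strand. The 3 constant exons of PCDHA (59, 89 and 2721 bases) were part of all 15 alpha genes and those of PCDHG (59, 89 and 2029 bases) of all 22 gamma genes. The first of these exons is shown for each cluster because its bases belong to every gene of the cluster, and a read pair that lies within the constant exons cannot be given to one gene. It lies at chr5:140978949-140979007 in PCDHA and at chr5:141494807-141494865 in PCDHG. Capitals mark the positions at which both differ, 39 of the 59 positions (66.1%) being identical.
PCDHA first constant exon: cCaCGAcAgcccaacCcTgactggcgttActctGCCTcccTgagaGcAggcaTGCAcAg
PCDHG first constant exon: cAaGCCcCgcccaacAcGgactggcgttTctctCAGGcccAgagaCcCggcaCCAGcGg

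Promoters of the members share a short word. RefSeq promoter sequences (GRCh38.p14, 300 bases, from 250 before the start of the gene to 50 after it) were found for 47 of the 53 members, and PCDHA3, PCDHA13, PCDHB6, PCDHB11, PCDHGA12 and PCDHGC5 had no entry. CGCT, searched on both strands, stood in 46 of the 47, all but PCDHA9, and in 70.0% of all 35116 promoters of full length. For each cluster the most widespread word of 8 letters that contains CGCT was then taken, a choice made on these sequences, which are related by duplication. ATGTCGCT was found in 9 of 13 alpha promoters and in 0.234% of all promoters, at a median of 52 bases before the start. GTGGCGCT was found in 13 of 14 beta promoters and in 1.15% of all promoters, at a median of 65 bases before the start. GCCGCTGT was found in 11 of 20 gamma promoters and in 1.63% of all promoters, at a median of 70 bases before the start. These 3 words are shown with 20 bases on either side, 5′ to 3′, for the 3 holders with the highest level and the 2 others with the largest change in each cluster. Capitals mark the word, all windows are on the plus strand, and each is given with its position.
PCDHA4, chr5:140806971-140807018: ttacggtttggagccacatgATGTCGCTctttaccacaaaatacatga
PCDHA10, chr5:140855833-140855880: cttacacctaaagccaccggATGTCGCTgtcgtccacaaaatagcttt
PCDHA2, chr5:140794773-140794820: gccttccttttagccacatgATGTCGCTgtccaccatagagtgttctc
PCDHA5, chr5:140821534-140821581: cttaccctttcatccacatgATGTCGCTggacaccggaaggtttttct
PCDHA8, chr5:140841122-140841169: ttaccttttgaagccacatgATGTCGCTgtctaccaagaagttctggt
PCDHB2, chr5:141094536-141094583: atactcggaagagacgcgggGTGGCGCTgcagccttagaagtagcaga
PCDHB3, chr5:141100385-141100432: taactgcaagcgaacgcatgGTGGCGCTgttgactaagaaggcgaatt
PCDHB14, chr5:141223255-141223302: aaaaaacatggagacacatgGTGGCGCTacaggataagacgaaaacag
PCDHB15, chr5:141245306-141245353: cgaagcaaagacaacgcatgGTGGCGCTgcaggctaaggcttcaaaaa
PCDHB13, chr5:141213857-141213904: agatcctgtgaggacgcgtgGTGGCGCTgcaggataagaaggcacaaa
PCDHGC3, chr5:141475874-141475921: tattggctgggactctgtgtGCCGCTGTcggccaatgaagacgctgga
PCDHGA1, chr5:141330397-141330444: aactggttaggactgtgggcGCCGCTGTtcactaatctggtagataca
PCDHGA9, chr5:141402708-141402755: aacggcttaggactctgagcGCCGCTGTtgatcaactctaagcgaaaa
PCDHGB1, chr5:141350019-141350066: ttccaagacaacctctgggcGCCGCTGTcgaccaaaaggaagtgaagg
PCDHGB4, chr5:141387611-141387658: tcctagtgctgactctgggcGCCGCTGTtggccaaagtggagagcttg
The alpha word was absent from PCDHA9, PCDHA11, PCDHAC1 and PCDHAC2, the beta word from PCDHB1, and the gamma word from 9 members among which were PCDHGA2, PCDHGB2 and PCDHGB3. Of the genes described below as higher after nutlin-3, 7 of the 9 alpha genes with the word and 3 of the 4 without it were among them, as were 9 of 13 beta genes with it and PCDHB1 without it. In the gamma cluster 4 of 11 with the word and 5 of 9 without it were higher. Over all tested genes 32.3% were higher. The match is a description of these letters and not of a bound site.

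Values per transcript were estimated counts, which kallisto obtains by dividing reads that fit several transcripts among them, and they were summed per gene. A total of 126 of the 130 annotated transcripts of the members were in the files. Library totals were 14455477 to 19532971 estimated counts, with a median of 17819527 in vehicle and 15675936 after nutlin-3. Levels are given as CPM, counts scaled to a common library size and normalized by TMM, which compares a gene between samples, and as TPM, which also takes out the length of the transcript and compares genes. MDM2, a p53 target and the check of the treatment, was at 199 to 290 CPM in vehicle and at 4797 to 6005 CPM after nutlin-3. The 12 adrenergic neuroblastoma markers were all measured, with a summed level of 8560 to 9706 CPM in vehicle and 8247 to 9989 CPM after nutlin-3, and 6 of them were lower and 4 higher (TH and CHGA rose by 0.62 and 0.56 on the log2 scale). Sums of glial, epithelial, blood and endothelial markers reached at most 5.41 CPM, with SOX10, CD3E and HBB too low to be tested, and the 8 mesenchymal markers summed to 56.2 to 65.0 CPM in vehicle and 63.1 to 73.8 CPM after nutlin-3, with 2 higher (COL1A1 and PRRX1) and 3 lower (LUM among them). Of the low markers, 3 of 4 epithelial ones and CD68 of the blood list were higher, and of the endothelial pair PECAM1 was higher and VWF lower. The part of any of these in the changes below was not tested. In bulk RNA a change in the number of cells that express a gene and a change per cell cannot be told apart.

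A few members held most of the signal in NGP cells. By TPM in vehicle the order began with PCDHGC3 at 19.6 ± 1.69 (SD, n = 10), the C-type gamma gene, followed by PCDHB2 at 12.5 ± 1.82, PCDHB3 at 4.41 ± 0.701, PCDHB10 at 3.16 ± 0.429 and PCDHB14 at 2.76 ± 0.367. The highest alpha genes were PCDHA2 at 2.35 ± 0.475 TPM, PCDHA11 at 2.29 ± 1.15 TPM and PCDHA3 at 2.09 ± 0.372 TPM, which lay within 1 SD of each other. The lowest was PCDHGB5 at 0.0572 ± 0.0274 TPM. PCDHGC3 held 74.8% ± 1.67 of all PCDHG counts in vehicle and 74.0% ± 1.63 after nutlin-3 (SD, n = 10), so the 19 A-type and B-type gamma genes together came to 5.66 TPM in vehicle. The same 3 genes, PCDHGC3, PCDHB2 and PCDHB3, led the order after nutlin-3, at 24.2, 13.5 and 5.90 TPM, while PCDHAC1 moved from place 13 to 9 and PCDHB15 from place 29 to 20 among the 53.

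**Figure D1:**
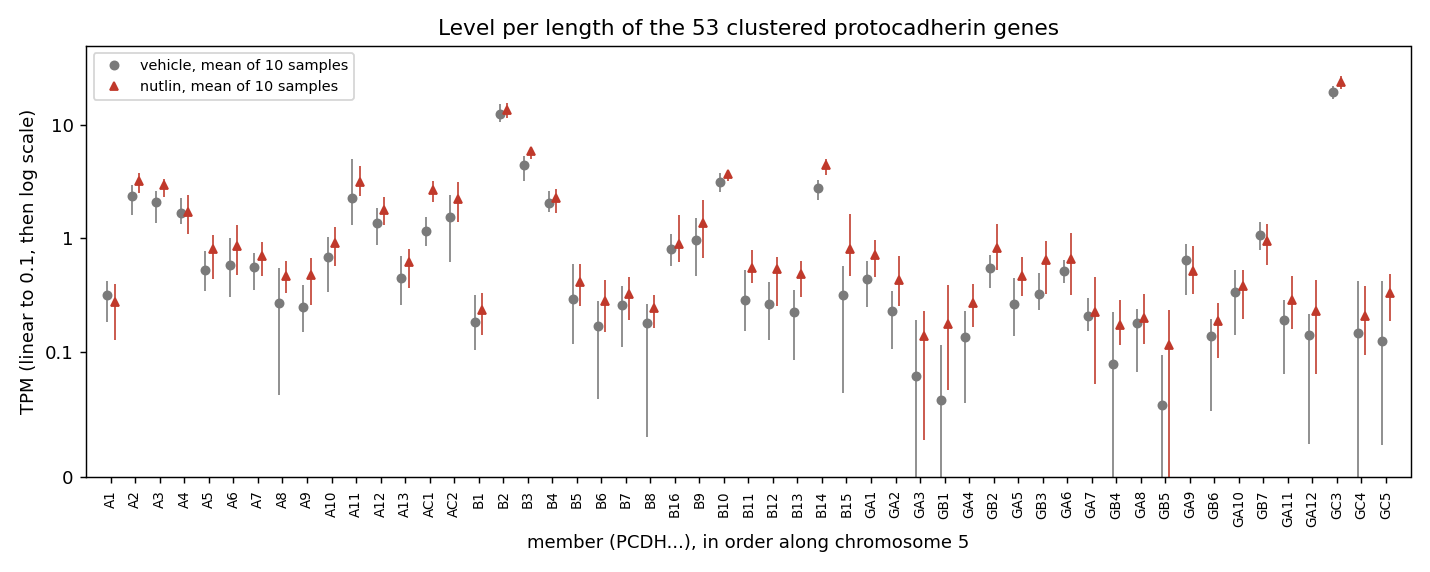
Level per length (TPM, linear up to 0.1 and logarithmic above) of the 53 members in their order along chromosome 5, as the mean of 10 vehicle (circles) and 10 nutlin-3 (triangles) samples with the lowest and highest sample as lines. PCDHGC3 and PCDHB2 stand above 10 TPM in both groups, and most gamma genes lie under 1 TPM.

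Most clustered protocadherins were higher after nutlin-3. In edgeR's quasi-likelihood test with Benjamini-Hochberg adjustment over 27697 genes, 33 of the 53 members were higher at 5% FDR, none was lower and 20 were not called (at an unadjusted p under 0.05, 35 were higher and 0 lower). Over all tested genes 32.3% were higher and 26.5% lower, and among the 11489 protein-coding genes with a mean CPM in the range of the members 36.0% were higher and 40.6% lower. The median log2 fold change of the members was 0.49, against 0.19 for all tested genes and -0.02 for the protein-coding genes in that range, and 49 of the 53 values were positive. Of the 38 members with a mean of at least 1 CPM, 28 were higher, and of the 15 under 1 CPM, 5 were higher. The changes were small: the log2 fold changes ran from -0.36 to 1.57, and 21 members were higher at 1% FDR.

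**Figure D2:**
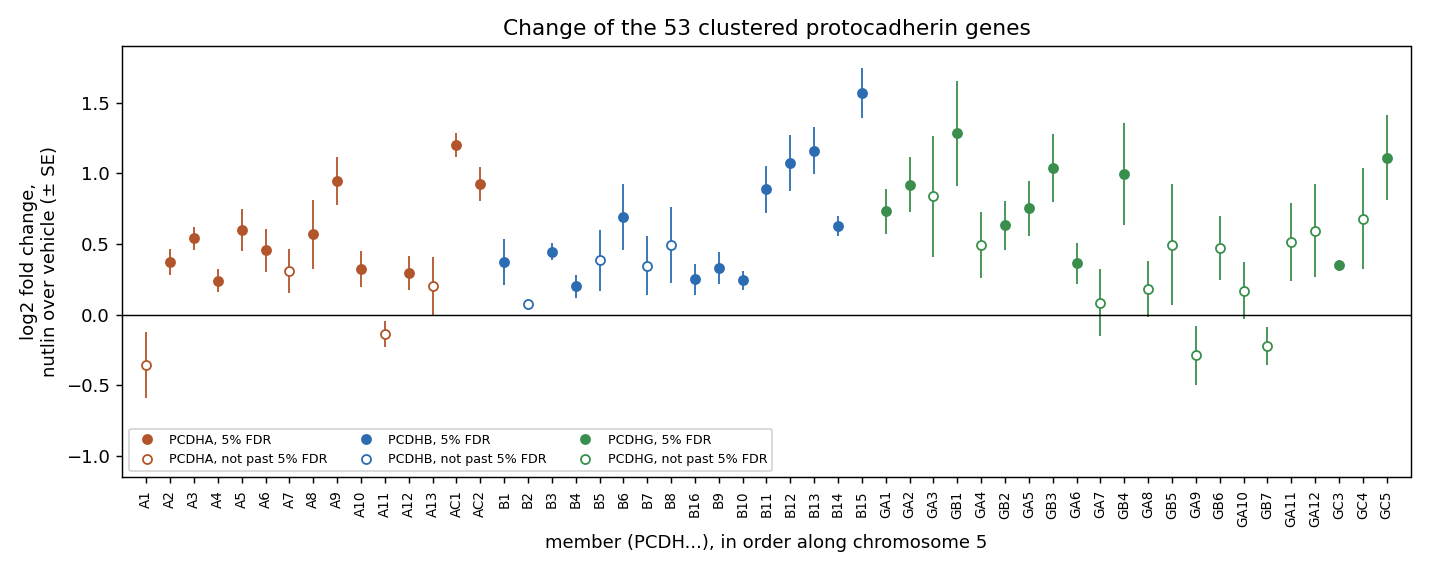
Log2 fold change of nutlin-3 over vehicle with its standard error for each of the 53 members, in order along chromosome 5 and colored by cluster, with filled circles for the 33 genes past 5% FDR. The 5 genes PCDHB11 to PCDHB15 at the 3′ end of the beta cluster lie at 0.63 to 1.57, and the 4 values below 0 are open circles.

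All 3 clusters were higher as sums, which do not depend on how reads of the constant exons were divided among the genes of a cluster. Summed PCDHA rose from 50.9, 62.6 and 71.1 CPM (lowest, median and highest vehicle sample) to 77.8, 87.4 and 96.0 CPM after nutlin-3, a log2 fold change of 0.48 ± 0.05 (SE, adjusted p = 1.33e-09). Summed PCDHB rose from 79.1, 84.0 and 88.1 CPM to 97.9, 107.8 and 110.5 CPM, a log2 fold change of 0.34 ± 0.03 (adjusted p = 6.29e-11). Summed PCDHG rose from 82.5, 88.2 and 96.5 CPM to 105.4, 114.7 and 124.8 CPM, a log2 fold change of 0.38 ± 0.03 (adjusted p = 5e-11). By CPM every nutlin-3 sample lay above every vehicle sample in each cluster, which was so for 12.2% of all tested genes and for 5 of the 53 single members (PCDHAC1, PCDHB3, PCDHB14, PCDHB15 and PCDHGC3). By TPM the groups overlapped in all 3 clusters. The highest vehicle and lowest nutlin-3 samples were at 21.1 and 18.6 TPM in PCDHA, 33.9 and 30.9 in PCDHB, and 28.0 and 27.7 in PCDHG. PCDHB3, PCDHB15 and PCDHGC3 overlapped by TPM as well.

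**Figure D3:**
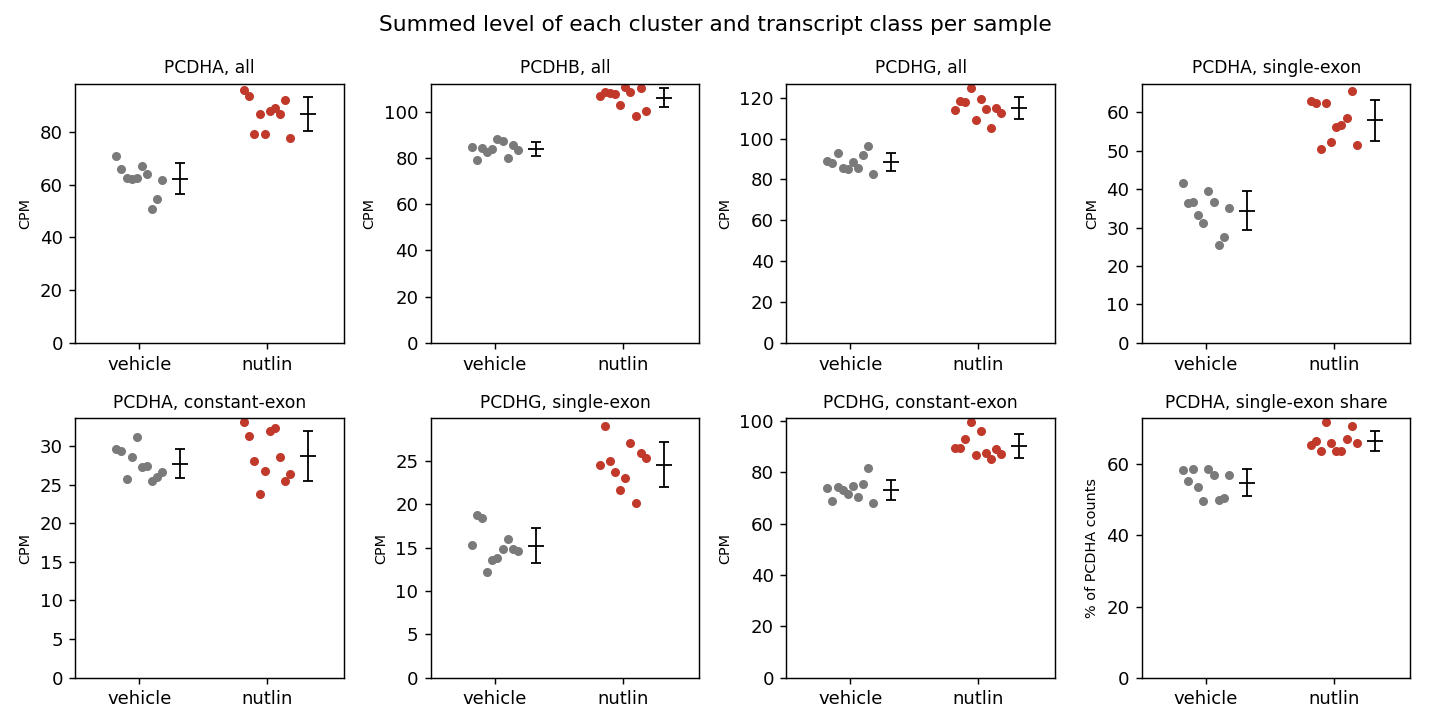
Summed CPM per sample of each cluster and of the single-exon and constant-exon transcripts of PCDHA and PCDHG, and the share of PCDHA counts on single-exon transcripts in percent. Points are the 10 vehicle and 10 nutlin-3 samples, bars the mean ± SD. Only in the panel of constant-exon PCDHA transcripts do the groups, at 27.7 and 28.8 CPM on average, lie over each other.

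In the alpha cluster 11 of 15 genes were higher and none lower, with a median log2 fold change of 0.37. Among protein-coding genes in the range of the members 36.0% were higher and 40.6% lower. The C-type gene PCDHAC1 moved most, and PCDHAC2, at 0.92, lay close to PCDHA9, at 0.95. PCDHAC1 ran at 3.97, 4.396 and 5.97 CPM in vehicle (lowest, median, highest) and at 8.88, 10.5 and 12.7 CPM after nutlin-3, with a log2 fold change of 1.20 ± 0.09 (edgeR adjusted p = 2.95e-13). PCDHAC2 ran at 2.84, 4.48 and 5.25 CPM in vehicle and at 5.06, 8.76 and 10.1 CPM after nutlin-3, with a log2 fold change of 0.92 ± 0.12 (edgeR adjusted p = 1.11e-07). PCDHAC1 groups were apart, and PCDHAC2 groups met at a single low nutlin-3 sample. Together both genes took 14.4% ± 1.91 of the PCDHA counts in vehicle and 22.0% ± 2.63 after nutlin-3 (SD, n = 10), a difference of 7.53 percentage points (two-sided permutation test, adjusted p = 4.67e-05 over 7 shares and numbers, with a raw p of 2e-05, the smallest that 100000 resamples give). The difference was 4.63 points by TPM (permutation test, adjusted p = 0.0189) and 14.2 points with the canonical transcript of each gene alone (adjusted p = 0.0134).

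Among the 13 other alpha genes, which are known to be switched on in different cells from their own promoters, 9 were higher, with a median log2 fold change of 0.32. PCDHA3 had the highest level by count, at 7.09, 9.55 and 11.4 CPM in vehicle and 11.2, 13.7 and 16.5 CPM after nutlin-3, and its log2 fold change was 0.54 ± 0.08 (edgeR adjusted p = 8.91e-07). PCDHA9 showed the largest change of these, from 1.55 ± 0.456 to 3.02 ± 0.793 CPM (SD, n = 10), a log2 fold change of 0.95 ± 0.17 (edgeR adjusted p = 1.7e-05). PCDHA5, PCDHA8, PCDHA6, PCDHA2, PCDHA10, PCDHA12 and PCDHA4 were higher by 0.60, 0.57, 0.45, 0.37, 0.32, 0.30 and 0.24 on the log2 scale, each with overlapping groups. PCDHA4 and PCDHA10 had levels close to that of PCDHA3, at 8.86 and 7.08 CPM in vehicle, but smaller folds, at 1.18 and 1.25 against 1.46. PCDHA11, at 6.02, 7.56 and 10.4 CPM in vehicle and 6.04, 6.88 and 8.69 CPM after nutlin-3, was not called, at -0.13 ± 0.09 (edgeR adjusted p = 0.222). With the effective transcript length as an offset PCDHA11 was at 0.53 (edgeR adjusted p = 0.0121). With the same offset PCDHA4 was at 0.02 (edgeR adjusted p = 0.887), and with all gene types in the fit PCDHA8 and PCDHA12 lost their calls (edgeR adjusted p = 0.0637 and 0.0504).

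The canonical transcript was a constant-exon one in all 15 alpha genes. With it alone PCDHA11 was lower, at -3.47 (edgeR adjusted p = 0.000906), PCDHAC1, PCDHAC2 and PCDHA9 were no longer called (0.93, 0.81 and 1.41, edgeR adjusted p = 0.26, 0.147 and 0.171), and PCDHA3 remained called. The values of PCDHA2, PCDHA4, PCDHA5, PCDHA6, PCDHA8, PCDHA10 and PCDHA12 were below 0 and not called, and summed PCDHA was at 0.10 (edgeR adjusted p = 0.194). Some of these transcripts were near the floor. PCDHA4-202, PCDHA5-202, PCDHA8-202 and PCDHA10-201 had means of 1.37, 2.35, 3.48 and 1.08 estimated counts. The constant-exon transcripts PCDHA4-201 and PCDHA5-201, with means of 68.6 and 17.8, are not canonical and were left out.

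In the beta cluster 12 of 16 genes were higher and none lower, against 36.0% and 40.6% of the protein-coding genes in the range of the members. All 16 log2 fold changes were positive, with a median of 0.41. The most abundant gene, PCDHB2, changed least, with 30.1, 31.8 and 33.9 CPM in vehicle and 31.6, 33.7 and 35.6 CPM after nutlin-3, overlapping groups and a log2 fold change of 0.07 ± 0.04 (edgeR adjusted p = 0.0939). PCDHB2 was called higher with DESeq2 size factors (0.12, adjusted p = 0.0056), with DESeq2 (0.12, adjusted p = 0.00429) and with filterByExpr (0.15, adjusted p = 0.000299). PCDHB3, next to it on the chromosome, ran at 11.01, 13.6 and 15.2 CPM and at 16.3, 18.4 and 19.7 CPM, without overlap, a log2 fold change of 0.45 ± 0.06 (edgeR adjusted p = 1.35e-07). PCDHB10, PCDHB4, PCDHB9 and PCDHB16, at 9.48, 6.90, 2.74 and 3.06 CPM in vehicle, were higher by 0.24, 0.20, 0.33 and 0.25 on the log2 scale. PCDHB4 and PCDHB16 lost their calls with the length offset (0.17 and 0.15, edgeR adjusted p = 0.115 and 0.453) and with all gene types (edgeR adjusted p = 0.0518 and 0.0721). PCDHB1, the member nearest to the alpha cluster, and PCDHB6 were higher by 0.37 and 0.69, at 1.39 and 0.445 CPM in vehicle, and PCDHB1 lost its call under the same pair of settings (edgeR adjusted p = 0.0667 and 0.0707).

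The 5 genes at the 3′ end of the beta cluster, PCDHB11 to PCDHB15, were all higher, with a median log2 fold change of 1.07, against 0.35 for the 11 other beta genes, of which 7 were higher. This grouping was made after the values were seen, and no test was run on it. PCDHB15, the last gene, went from 0.241, 0.758 and 1.17 CPM to 1.79, 2.44 and 2.69 CPM, the largest change of the 53 members at a log2 fold change of 1.57 ± 0.18 (edgeR adjusted p = 5.32e-09). PCDHB14 went from 6.74, 9.13 and 10.4 CPM to 11.8, 13.6 and 15.6 CPM, a log2 fold change of 0.63 ± 0.07 (edgeR adjusted p = 3.94e-09). The groups did not overlap for either gene. PCDHB13 rose by 1.16 ± 0.16, PCDHB12 by 1.07 ± 0.20 and PCDHB11 by 0.89 ± 0.17 on the log2 scale, from 1.05, 0.711 and 1.11 CPM in vehicle, and their groups overlapped. Across the genes of a cluster, the Spearman correlation of position with log2 fold change was 0.62 over the 16 beta genes, 0.25 over the 15 alpha genes and -0.34 over the 22 gamma genes; these points share the same libraries and differ in depth.

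Counts were spread over more beta genes after nutlin-3. The effective number of members, the exponential of the Shannon entropy of their counts and thus the number of equally abundant genes with the same evenness, was 6.70 to 7.61 in vehicle and 8.14 to 8.72 after nutlin-3 in PCDHB, without overlap (7.28 ± 0.287 against 8.39 ± 0.167, SD, n = 10, permutation test, adjusted p = 4.67e-05). It was 11.5 ± 0.282 against 11.5 ± 0.307 in PCDHA (permutation test over n = 10 and 10, adjusted p = 0.751; with canonical transcripts alone it was lower by a difference of -1.63, adjusted p = 0.00185) and 3.44 ± 0.244 against 3.67 ± 0.242 in PCDHG (permutation test over n = 10 and 10, adjusted p = 0.073). With TPM in place of counts the PCDHG difference was 0.35 and passed the threshold (adjusted p = 0.0055).

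**Figure D4:**
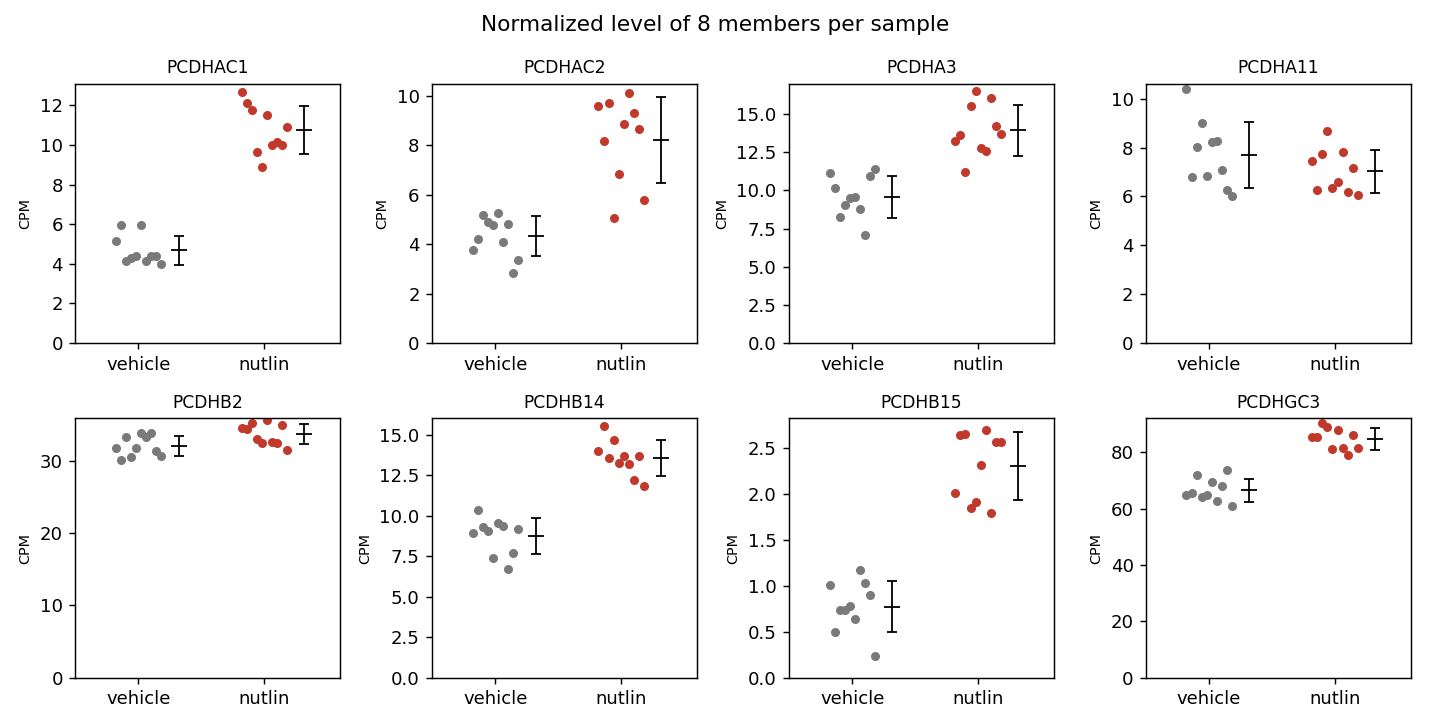
Normalized level in CPM of 8 members in each of the 10 vehicle and 10 nutlin-3 samples, with the mean ± SD beside the points and axes that start at 0. PCDHAC1, PCDHB14, PCDHB15 and PCDHGC3 have every nutlin-3 sample above every vehicle sample, whereas PCDHB2 and PCDHA11 overlap.

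In the gamma cluster 10 of 22 genes (45.5%) were higher and none lower, with a median log2 fold change of 0.55. This share is nearer to the 36.0% higher among protein-coding genes in the range of the members than those of the other 2 clusters, 73.3% and 75%. PCDHGC3, the dominant gene, ran at 60.8, 65.1 and 73.8 CPM in vehicle and at 78.9, 85.3 and 90.5 CPM after nutlin-3, without overlap, at a log2 fold change of 0.35 ± 0.04 (edgeR adjusted p = 1.54e-09). Of the other C-type genes, PCDHGC5 went from 0.138, 0.418 and 1.75 CPM to 0.722, 1.01 and 1.86 CPM, a log2 fold change of 1.11 ± 0.30 (edgeR adjusted p = 0.00205), with overlap from 1 high vehicle sample, and with canonical transcripts alone it was not called (0.63, edgeR adjusted p = 0.484). PCDHGC4, the C-type gene known to be needed for the survival of neurons in mice, was at 0.359 ± 0.242 and 0.590 ± 0.288 CPM and was not called (edgeR adjusted p = 0.103). Because PCDHGC3 held so much of the cluster, the share of the C-type genes was 75.8% ± 1.41 in vehicle and 75.5% ± 1.62 after nutlin-3 (permutation test over n = 10 and 10, adjusted p = 0.751). By TPM the difference was -1.21 percentage points and passed the threshold (permutation test over n = 10 and 10, adjusted p = 0.04).

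Among the A-type gamma genes 4 of 12 were higher and among the B-type genes 4 of 7, at low levels, against a background of 32.3% over all tested genes, to which the A-type share is near. PCDHGA1, the first gene of the cluster, went from 1.69 ± 0.469 to 2.80 ± 0.626 CPM (SD, n = 10), a log2 fold change of 0.73 ± 0.16 (edgeR adjusted p = 0.000201). PCDHGA2 rose by 0.92 ± 0.19, PCDHGB3 by 1.04 ± 0.24, PCDHGB4 by 0.99 ± 0.36, PCDHGA5 by 0.75 ± 0.19, PCDHGB2 by 0.63 ± 0.17 and PCDHGA6 by 0.36 ± 0.14 on the log2 scale, from 0.387 to 2.55 CPM in vehicle. PCDHGA6 lost its call with voom and with the length offset (adjusted p = 0.0745 and 0.067). With canonical transcripts alone neither PCDHGA1 nor any of these genes was called, and PCDHGA5 was at -2.44 (edgeR adjusted p = 0.0597). That value rests on PCDHGA5-201, which had a mean of 2.20 estimated counts. PCDHGB1, named after its values were seen, was higher by 1.28 ± 0.37 at 0.232 CPM in vehicle. PCDHGB7, the second most abundant gamma gene, was at 4.63 ± 0.753 and 3.96 ± 1.08 CPM and was not called, at -0.22 ± 0.14 (edgeR adjusted p = 0.162). The other uncalled genes with a value below 0 were PCDHA1, PCDHA11 and PCDHGA9, at -0.36, -0.13 and -0.29, and PCDHA1 and PCDHGA9 were picked for this statement after their values were seen.

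Transcripts of the alpha and gamma genes were sorted by their structure. A constant-exon transcript overlaps at least 1 of the constant exons, whereas a single-exon transcript consists of 1 exon and holds none of them. Over the 119877 transcripts tested, 12.7% were higher and 10.7% lower at 5% FDR. Of the 117 member transcripts tested, 23 were higher and 2 lower. Of the 35 single-exon transcripts 13 were higher and 0 lower (edgeR; median log2 fold change 0.82), of the 50 constant-exon transcripts 2 were higher and 2 lower (median 0.01), and of the 29 PCDHB transcripts 8 were higher and 0 lower (median 0.46).

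How well reads can tell these transcripts apart differs by class. Words of 31 bases, the length that kallisto uses by default, were compared among the transcripts matched to the GENCODE annotation. A median of 0.479% of the words in the 24 constant-exon PCDHA transcripts and 22.9% in the 15 single-exon ones occurred in no other transcript. For a gene as a whole, a median of 38.4% of the words of the constant-exon PCDHA transcripts and 79.9% of the single-exon ones occurred in no other gene. In PCDHG these medians were 46.9% and 89.1%, and in the 32 PCDHB transcripts 70.6%. The words were read on the forward strand from GENCODE transcript models, which can differ in length from those the counts were made on.

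Summed over the alpha cluster, only the single-exon class changed past the threshold. Single-exon PCDHA transcripts went from 25.5, 35.8 and 41.5 CPM to 50.4, 57.6 and 65.4 CPM, without overlap, a log2 fold change of 0.75 ± 0.07 (edgeR adjusted p = 8.71e-11). Constant-exon PCDHA transcripts went from 25.5, 27.4 and 31.2 CPM to 23.8, 28.3 and 33.1 CPM, with overlap, a log2 fold change of 0.05 with a 95% interval from -0.06 to 0.16 (edgeR adjusted p = 0.443). The share of PCDHA counts on single-exon transcripts was 49.7% to 58.7% in vehicle and 63.7% to 71.8% after nutlin-3, 54.9% ± 3.69 against 66.5% ± 2.84 (SD, n = 10, permutation test, adjusted p = 4.67e-05). These sums per class were added after the transcript values were seen, and they rest on how kallisto divided the reads of the variable exon.

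In the gamma cluster both classes were higher. Single-exon PCDHG transcripts went from 12.2, 14.8 and 18.8 CPM to 20.2, 24.8 and 29.1 CPM, a log2 fold change of 0.69 ± 0.07 (edgeR adjusted p = 7.9e-10), and constant-exon ones from 67.9, 73.4 and 81.7 CPM to 84.9, 89.1 and 99.4 CPM, a log2 fold change of 0.30 ± 0.04 (edgeR adjusted p = 1.49e-08). Neither pair of groups overlapped. The single-exon share was 17.2% ± 2.13 and 21.3% ± 1.98 (SD, n = 10, permutation test, adjusted p = 0.000805).

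The transcripts of single genes showed the same classes side by side, in estimated counts that are not scaled to depth. PCDHA11-202, a single-exon transcript, had 0, 42.0 and 90.2 counts in vehicle and 72.8, 94.5 and 120.8 counts after nutlin-3 (edgeR adjusted p = 0.0629). PCDHA11-201, the spliced constant-exon transcript of the same gene, had 21.7, 64.7 and 147.4 counts in vehicle and 0, 0 and 42.7 counts after nutlin-3, and fell by 3.55 ± 0.87 on the log2 scale (edgeR adjusted p = 0.00376). No word of PCDHA11-201 was its own, against 25.2% of the words of PCDHA11-202 in the GENCODE models, of which that of PCDHA11-201 is shorter than the 6115 bases counted.

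The most abundant transcripts of the other alpha genes named here included no other that was called lower. PCDHA4-203, single-exon, went from 60.1 ± 16.2 to 99.8 ± 20.3 counts (SD, n = 10, edgeR adjusted p = 0.000832), and PCDHA4-201, constant-exon, from 73.9 ± 17.3 to 63.3 ± 26.7 (edgeR adjusted p = 0.571). No word of PCDHA4-201 was its own, against 72.9% of the words of PCDHA4-203 in the GENCODE models. For PCDHA3 both were higher, PCDHA3-202, single-exon, from 57.7 ± 10.2 to 86.9 ± 13.3 counts (edgeR adjusted p = 0.000344) and PCDHA3-201, constant-exon, from 88.2 ± 19.0 to 131 ± 30.2 (edgeR adjusted p = 0.00683). PCDHAC1-202, single-exon, had 14.2 to 70.0 counts in vehicle and 99.3 to 164 after nutlin-3, without overlap (edgeR adjusted p = 2.76e-06), and PCDHAC1-201, constant-exon, had 0 to 48.3 and 0 to 72.4 counts (edgeR adjusted p = 0.445). PCDHA2-201, PCDHA5-203, PCDHA9-201 and PCDHA12-202, all single-exon, were also higher. For PCDHAC2 neither of the 2 most abundant transcripts was called, PCDHAC2-201 at 49.3 ± 24.5 and 83.0 ± 39.8 counts and PCDHAC2-203 at 13.5 ± 14.1 and 45.3 ± 16.6 counts, and the other transcript that fell besides PCDHA11-201 was PCDHAC2-202, of 3.29 and 0.359 counts on average, named after its values were seen.

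**Figure D5:**
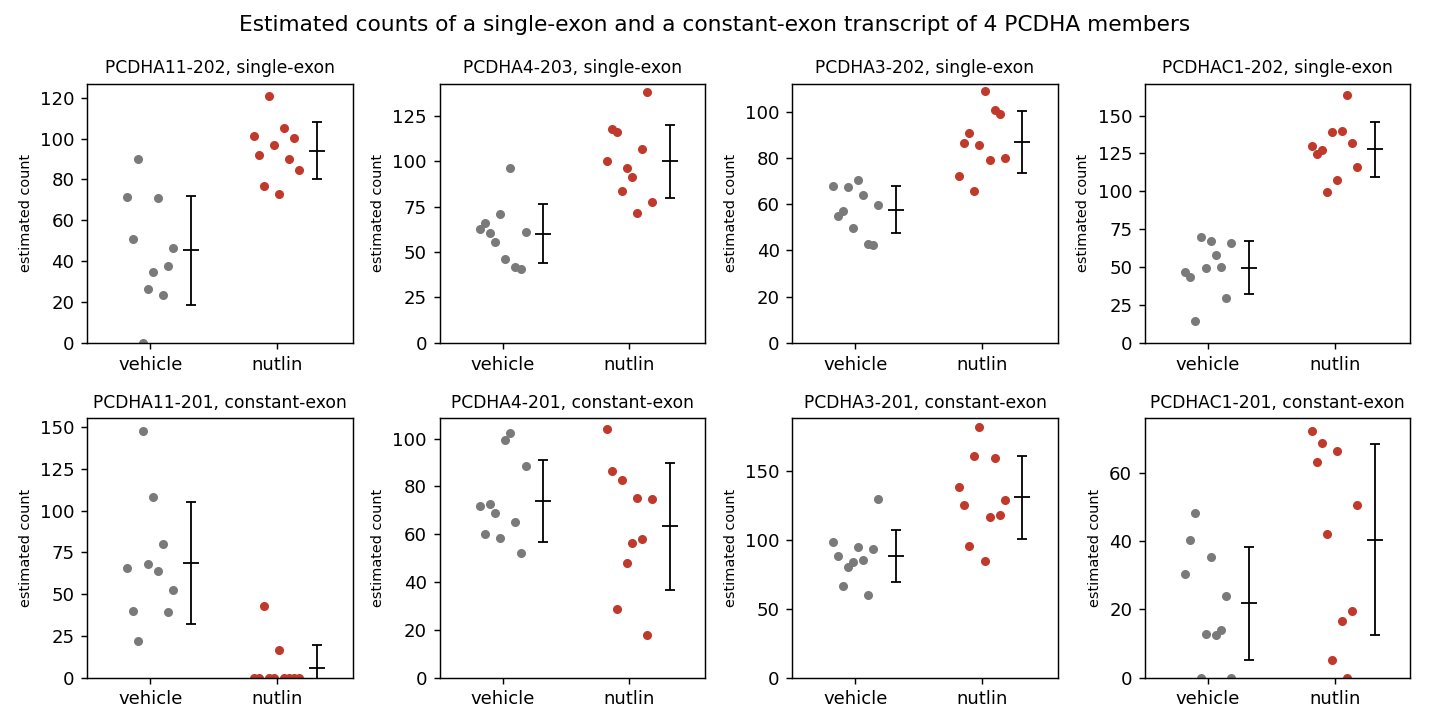
Estimated counts per sample of a single-exon (top) and a constant-exon (bottom) transcript of PCDHA11, PCDHA4, PCDHA3 and PCDHAC1 in 10 vehicle and 10 nutlin-3 samples, with the mean ± SD beside the points. For PCDHA11-201 the median after nutlin-3 is 0 and that of vehicle is 64.7.

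The dominant transcript of the gamma cluster was the spliced PCDHGC3-201, with 619, 753 and 859 counts in vehicle and 870, 1022 and 1135 counts after nutlin-3, without overlap (log2 fold change 0.41 ± 0.05, edgeR adjusted p = 1.49e-06). PCDHGC3-205, a shorter constant-exon transcript, had 180 ± 43.0 and 182 ± 39.9 counts (edgeR adjusted p = 0.995). Single-exon transcripts that were higher included PCDHGA1-201, PCDHGA2-202 and PCDHGA5-202, the last from 10.1 ± 5.42 to 23.8 ± 6.55 counts (edgeR adjusted p = 0.00262). Among beta genes PCDHB15-201 rose from 4.05 to 19.3 counts in vehicle to 26.7 to 42.5 counts after nutlin-3 (edgeR adjusted p = 6.51e-06). PCDHB2-201 and PCDHB2-202, the main transcripts of PCDHB2, were not called (314 ± 43.0 and 330 ± 30.5 counts, and 166 ± 32.5 and 184 ± 37.3 counts).

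CTCF and the cohesin complex join promoters and enhancers of the locus into loops, and SMCHD1, the DNA methyltransferases and the SETDB1 complex keep promoters silent. Of 18 such regulators, 15 were lower, 2 higher (MAU2 and SETDB1, by 0.16 and 0.14 on the log2 scale) and 1, NIPBL, was not called (median log2 fold change -0.96), against 26.5% lower over all tested genes and 40.6% over protein-coding genes in the range of the members. That range ended at 75.6 CPM. Most of the regulators lay above it, such as TRIM28 at 390 and DNMT1 at 374 CPM, so the share is not matched to their level. The cohesin subunit RAD21 fell by 1.39 ± 0.04, SMC3 by 1.28 ± 0.03 and the methyltransferase DNMT3B by 1.901 ± 0.08 on the log2 scale. CTCF, from 111 to 52.9 CPM, fell by 1.07 ± 0.03. Whether these changes bear on the protocadherins was not tested.

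Of 18 genes for the cleavage and the cytoplasmic partners of protocadherins, 3 were higher and 12 lower (median -0.28). Over all tested genes 32.3% were higher and 26.5% lower, and among protein-coding genes in the range of the members 36.0% and 40.6%. Several of the 18 genes, such as CYFIP2 at 212 and APH1A at 200 CPM, lay above that range, which ended at 75.6 CPM. Gamma-secretase subunit APH1A fell by 1.08 ± 0.04, while the kinase PTK2B, which binds the shared tail, rose by 1.34 ± 0.06 and CYFIP2 of the WAVE actin complex rose by 2.24 ± 0.03 on the log2 scale. Of 12 protocadherins outside the clusters, 8 were higher and 3 lower (median 0.93), against the same background shares. PCDH15 was at 1.40 ± 0.22, PCDH18 at -2.61 ± 0.10 and PCDH20 at -1.85 ± 0.22 on the log2 scale.

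Of the 31 other protein-coding genes within 500 kb of the locus, 11 were higher, 11 lower and 9 not called, with a median log2 fold change of -0.03, near the background of 36.0% higher and 40.6% lower among protein-coding genes in the range of the members. HBEGF, PCDH1 and SRA1 changed most among those called with a mean of at least 1 CPM, by 1.79, 1.33 and 1.07, and DIAPH1, which follows the gamma cluster directly, fell by 0.98 ± 0.03. TAF7, which lies between the beta and gamma clusters, was higher by 0.21 ± 0.03, from 141 to 163 CPM. Of the 23 long noncoding RNA genes of the locus 21 were tested, and 7 were higher and 0 lower by edgeR (median 0.71), with the count of higher genes near the 32.3% of all tested genes, at a summed level of 6.31 to 12.8 CPM per sample. ENSG00000272108, the 1 among them with a mean of at least 1 CPM, was at 3.92 and 4.70 CPM.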

How the data were processed

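RNA from 20 NGP samples was sequenced by the study's authors with stranded polyA libraries and quantified with kallisto 0.42.4, hg38 being the build in the submitters' notes. The deposited files hold an estimated count, a TPM value, a length and an effective length for each of 198968 transcripts. Counts of the 191106 transcripts (96.05%) in GENCODE 44 were summed per gene, rounded, and fitted in edgeR 4.0.16 (R 4.3.3) with TMM and the quasi-likelihood test over protein-coding and lncRNA genes with at least 1 count in total in each condition (limma 3.58.1 and DESeq2 1.42.0 as alternatives). Cluster sums replaced their members in the same fit. TPM was used as deposited for levels only. The study calls the samples of a group biological replicates. The labels do not say how far apart their cultures were kept. The p-values set the difference between groups against the spread between these samples. Intervals are at 95% and cover the fit alone. On simulated counts the gene fit recovered the changes it was given (tested with known fold changes).

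Named members were the C-type genes, the 5 per cluster with the highest mean CPM, and every other member past 5% FDR with at least 0.5 CPM, with 2 transcripts each and the 3 largest changes per list at 1 CPM or more. Values of some marker genes are not reported here. Members and lists were chosen with earlier results of these data known. Totals were 14455477 to 19532971 counts, of which 95.71% to 96.78% were matched.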

Additional observations from a re-analysis of the deposited data

Results flagged for a closer look

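In 92 groups of 10 samples (members, sums and shares by condition), 4 had a sample apart from the rest by a gap of more than 0.466 of the range; chance gives about 1 group in 20. Vehicle replicate 9 was at 11.563 CPM for PCDHA4, with the others at 7.56 to 9.38. Vehicle replicate 11 was at 2.1125 CPM for PCDHB11, with the others at 0.577 to 1.33. Nutlin replicate 6 was at 1.3574 CPM for PCDHGB4, with the others at 0.526 to 0.889. Vehicle replicate 3 was at 1.7452 CPM for PCDHGC5, with the others at 0.138 to 0.673.

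Genes of the locus that are annotated as pseudogenes took no part in the gene comparison. In a fit of all gene types PCDHGB8P, in the gamma cluster, had a mean of 3.57 estimated counts in vehicle and 9.2244 after nutlin-3 (edgeR adjusted p = 0.000733, log2 fold change 1.33 ± 0.32), and PCDHB19P, in the beta cluster, 1.80 and 6.1759 (edgeR adjusted p = 0.028, 1.64 ± 0.62). PCDHA14, PCDHB17P, PCDHB18P and PCDHGB9P were not called. A second entry named PCDHB18P is annotated as a long noncoding RNA gene and was part of the gene comparison. It was higher there, by 1.42 ± 0.51 on the log2 scale (edgeR adjusted p = 0.0168), at a mean of 0.362 CPM. Reads can be shared between these copies and the genes beside them.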

How the results depend on the processing

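With DESeq2 size factors, DESeq2, limma voom, edgeR's filterByExpr (44 members left), a length offset and all gene types, 28 to 35 members were higher and 0 lower, and the 3 cluster sums stayed past the threshold in each. At 1% FDR 21 were higher. With the canonical transcript of each gene alone, 13 were higher and 1 (PCDHA11) lower, and the PCDHA sum was at 0.10 (adjusted p = 0.194), whereas the PCDHB and PCDHG sums held at 0.41 and 0.43. This choice drops the single-exon alpha and gamma transcripts and also constant-exon ones, such as PCDHA4-201 with a mean of 68.6 estimated counts. It rests in part on transcripts near the floor, such as PCDHA4-202 and PCDHGA5-201 with means of 1.37 and 2.20. Under it PCDHA2 was at -0.98, PCDHA4 at -0.92, PCDHA5 at -1.05, PCDHA6 at -0.16, PCDHA8 at -1.01, PCDHA10 at -0.081, PCDHA12 at -0.21 and PCDHGA5 at -2.44, none past the threshold, and the effective number of PCDHA and PCDHG members differed by -1.63 (adjusted p = 0.00185) and -0.26 (adjusted p = 0.127) and the C-type share of PCDHG by 3.08 percentage points. With TPM that share differed by -1.21 (adjusted p = 0.04) and the effective number of PCDHG by 0.35 (adjusted p = 0.0055). With a length offset PCDHA11 was at 0.53 (adjusted p = 0.0121). The cause was not tested. Of the 36 named members, 5 lost their call with the offset, 5 with all gene types and 1 with voom. With canonical transcripts alone 11 lost their call with the same sign and 8 changed sign. On the 16 samples described below, 9 lost their call with the replicate block and 8 without it.

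The labels do not say whether the numbers shared by 8 vehicle and 8 nutlin samples mark pairs. No shared effect was seen: correlations of same-numbered samples were -0.04 to 0.08, and 0 of the vehicle samples correlated best with their own number. Low correlations cannot show that same-numbered samples were unpaired. The replicate block on these 16 samples gave 25 members higher and 0 lower, against 26 and 0 without the block. For transcripts the block on these 16 samples gave 11 higher and 1 lower, against 23 and 2 in the main fit on all samples. Transcripts were not fitted on the 16 samples without the block. The part of the block in this drop therefore cannot be told from that of the samples left out. With filterByExpr 1 transcript was lower. Transcripts whose sign turned, none of them called either way, were PCDHA6-203 (0.58 under the block), PCDHA12-201 (0.33 under voom), PCDHGA2-201 (-0.064 under voom and -1.46 under the block), PCDHGA6-201 (-0.20 under voom), PCDHGC3-205 (0.0101 with DESeq2 size factors and 0.0475 with filterByExpr) and PCDHGC5-201 (-0.69 under voom). Members under 1 CPM, 15 of the 53, limit what can be seen at this depth.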
